A study of Rattus norvegicus with 8 samples.

Results

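The genes described here encode kinases, phosphatases and their regulatory subunits in retinal ganglion cells (RGCs), the neurons whose axons form the optic nerve. Members were taken by symbol: *Nuak2* and every named gene whose symbol begins as those of the MAP kinase cascade, the Camk, Prka, Prkc, Prkd, Prkg, Pik3, Stk, Pak, Csnk, Mark, Rps6k, Akt, Jak and Mtor kinases, or the Ppp, Ppm1, Ptpn, Ptpr and Dusp phosphatases do, leaving out *Prkca*, *Dusp1* and *Ptprc*. The rule itself uses symbols and no measured value. It gave 42 genes of the 1998 that could be paired with a symbol, out of 32623 gene IDs counted, so each family is seen in part or not at all. No Prkc, Pak, Akt, Jak, Mtor or Ptpr gene is among the members. RNA was sequenced from Sprague Dawley rat RGCs taken on day 21 of gestation (E21) or day 11 after birth (P11), with 4 libraries per stage, each from an independent litter. The cells of both stages were purified by immunopanning, in which anti-macrophage antibodies removed unwanted cells and an anti-Thy1 antibody captured RGCs, and a litter is a pool of pups or embryos. No group carried a transgene, treatment or injury.

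Protein kinases add phosphate groups to other proteins and phosphatases remove them, so that a signalling state depends on both. In the MAP kinase cascade, a MAP3K phosphorylates a MAP2K, which phosphorylates a MAPK of the ERK, JNK or p38 kind, while dual-specificity phosphatases (Dusp) switch MAPKs off. In neurons, JNK and ERK carry signals from axon to nucleus, ribosomal S6 kinases act below ERK and mTOR, and PP1 and PP2A take their targets from exchangeable regulatory subunits.

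The libraries held 13899299 to 20116017 counted reads. Members took 0.198% to 0.235% of the counted reads of a library. Levels below are CPM, a gene's reads set against the total of its library, with TMM scaling for library composition. Gene lengths were not used, so levels are compared between stages and not between genes. The neuronal markers *Rbfox3*, *Uchl1* and *Gap43* were present in all 8 libraries. Their summed level was 3355 to 3497 CPM at E21 and 2047 to 2176 CPM at P11, a difference that lay mostly in the growth-associated gene *Gap43* (means of 1711 and 623 CPM). *Uchl1* averaged 1603 and 1382 CPM, and *Rbfox3* overlapped between stages (119 and 126 CPM, edgeR adjusted p = 0.157). The RGC markers Thy1, Rbpms and Pou4f1 were not analysed here. Markers of other cells also moved with stage. The sum of 8 endothelial and mural markers was 4.20 to 6.07 CPM at E21 and 290 to 568 CPM at P11, of which the pericyte genes *Rgs5* and *Notch3* made up most, and 5 of the 8 were called higher at P11. The sum of 6 photoreceptor markers was 6.99 to 8.50 CPM at E21 and 29.9 to 49.4 CPM at P11, with 4 of 6 called higher at P11. Other sums mixed genes of both directions. The bipolar sum (41.4 to 49.0 CPM at E21, 87.3 to 94.5 CPM at P11) was carried by *Prkca*, while *Grm6* and *Lhx4* were higher in all E21 libraries. The amacrine sum (6.29 to 7.30 CPM at E21, from 13.3 CPM upward at P11) was carried by *Gad1*, while *Prox1* was called higher at E21. The astrocyte and Müller cell sum (0.669 to 0.861 CPM at E21, 1.15 to 2.62 CPM at P11) was carried by *S100b*, with *Sox9* higher in all E21 libraries. The proliferating cell sum (8.84 to 10.4 CPM at E21, 13.5 to 24.3 CPM at P11) held *Cdk1*, called higher at P11, and *Foxn4*, higher in all E21 libraries. Each of these sums had an exact permutation p = 0.0286 over libraries, two-sided, and 0.0321 after adjustment over the 9 lists. The microglia sum, at most 1.21 CPM in any library, had p = 0.171 in the same exact test. No marker of any list was at 0 in all libraries. In such bulk samples, fewer cells of a type and less RNA per cell cannot be told apart.

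Of the 42 members, 39 had enough counts to be tested, and *Mapk7*, *Mapk13* and *Pik3r6* did not. A gene was called when the edgeR quasi-likelihood test gave an adjusted p below 0.01, with Benjamini-Hochberg adjustment over all 14043 genes tested, and its log2 fold change (E21 over P11) exceeded 1 in size. By this rule 8 members were called (20.5%), beside 24.7% of all genes tested. *Rps6ka6*, *Ppp1r18*, *Nuak2* and *Stk38* were higher at E21, and *Ppp2r5a*, *Ptpn14*, *Dusp27* and *Map3k7cl* were higher at P11. That is 10.3% of members in each direction, beside 8.16% of all genes for E21 and 16.5% for P11. *Dusp27* and *Map3k7cl* had enough counts to be tested only through their P11 libraries, the stage where they were high.

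Most members differed between the stages by less than the fold threshold. At the adjusted p alone, 20 members (51.3%) were higher at E21 and 16 (41.0%) at P11, beside 33.8% and 34.6% of all genes. The levels of the E21 and P11 libraries did not overlap for 35 members (89.7%), beside 71.3% of all genes. The reads behind the tests also differed, with a median over the tested members of 31.6 CPM beside 22.4 CPM over all genes tested. The part of this in the shares above was not tested. The median log2 fold change of the tested members was 0.17, beside 0.0042 for all genes, and its median size was 0.61 beside 0.49. Kinase and phosphatase genes were also counted apart. Of the 25 tested kinases and kinase subunits, 15 were higher at E21 and 7 at P11 at the adjusted p, with a median log2 fold change of 0.25. Of the 14 phosphatases and phosphatase subunits, 5 were higher at E21 and 9 at P11, with a median of -0.49. The phosphatase list includes the PP1 inhibitors *Ppp1r2* and *Ppp1r11*, and also *Dusp27*, thought to lack catalytic activity. The kinase list includes *Map3k7cl*, which has no kinase domain. No test was run on the difference between these lists.

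**Figure D1:**
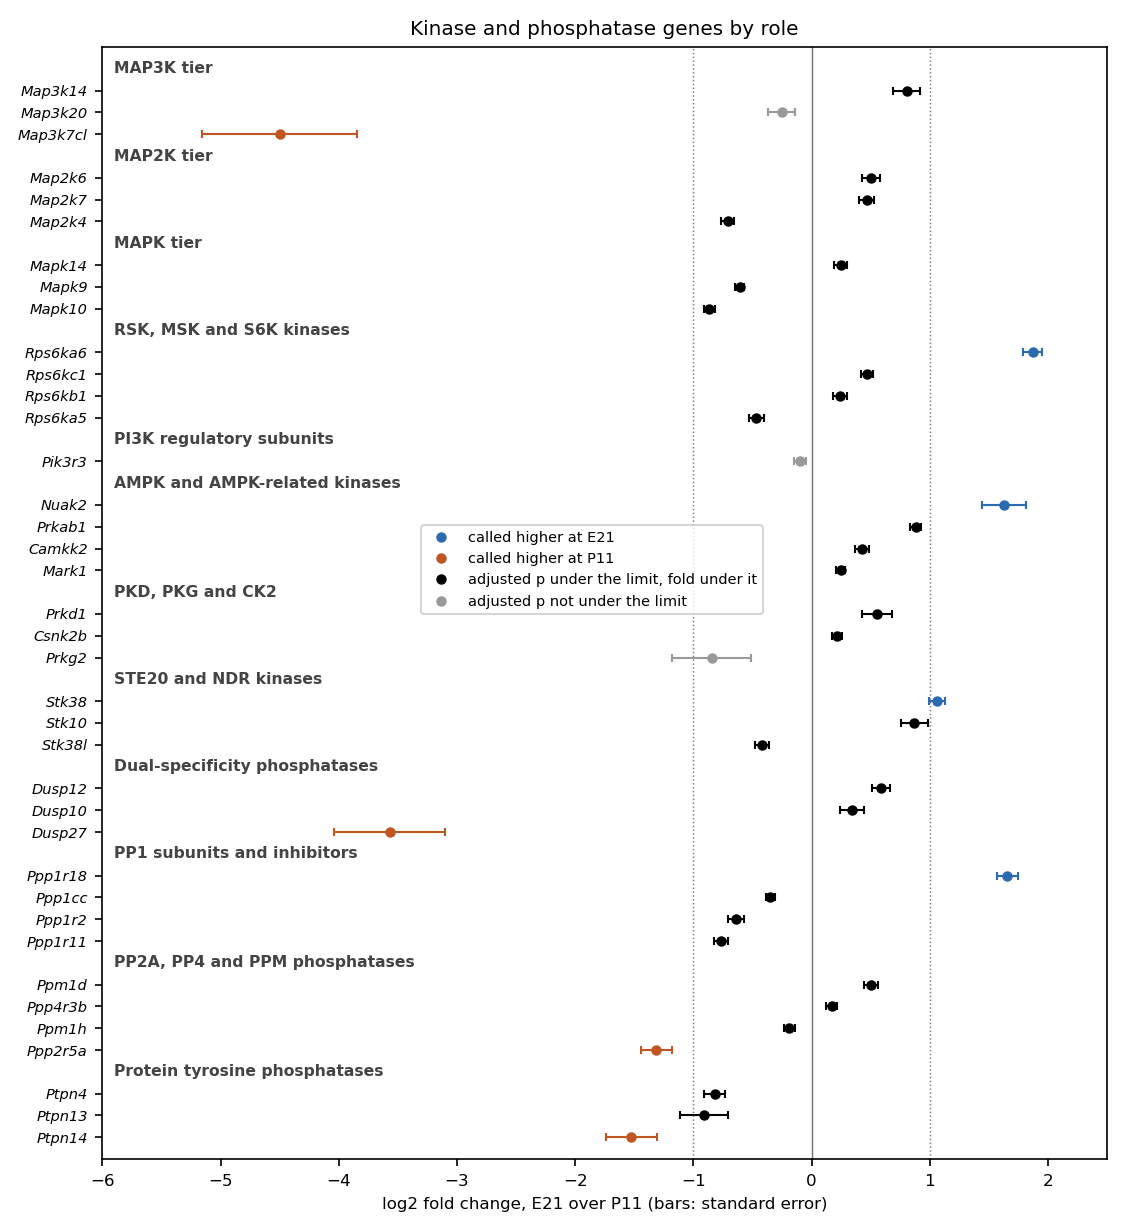
Log2 fold change (E21 over P11, x axis) of 38 tested members, grouped by role, with bars for the standard error and dotted lines at the fold threshold. *Map3k7cl* and *Dusp27* lie far to the left of the other members plotted, and the members higher at E21 end at *Rps6ka6* with 1.87.

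The largest difference towards E21 was in *Rps6ka6*, which encodes the ribosomal S6 kinase RSK4. Its level was 39.0, 37.1, 34.9 and 40.2 CPM in the E21 libraries and 10.7, 8.58, 10.5 and 11.5 CPM in the P11 libraries. The lowest E21 library thus stood well above the highest P11 library. The log2 fold change was 1.87 with a standard error (SE, derived from the test statistic) of 0.08 (edgeR quasi-likelihood test, adjusted p = 2.95e-12).

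*Ppp1r18* encodes phostensin, a PP1 regulatory subunit that binds actin filaments. It stood at 68.5, 71.5, 80.3 and 68.7 CPM in E21 libraries and at 18.3, 22.8, 23.9 and 26.3 CPM in P11 libraries. All E21 libraries were higher than all P11 libraries, with a log2 fold change of 1.66 (SE 0.09, adjusted p = 1.01e-09). *Nuak2*, an AMPK-related kinase that acts on the actomyosin cytoskeleton, was lower in count, at 7.63, 7.80, 7.14 and 8.70 CPM in E21 libraries and 1.55, 2.49, 2.35 and 3.55 CPM in P11 libraries. The stages did not overlap, and the P11 libraries spread more, relative to their mean of 2.48 CPM, than the E21 libraries around 7.82 CPM. Its log2 fold change was 1.63 (SE 0.19, adjusted p = 4.83e-07).

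*Stk38* encodes NDR1, a kinase of the Hippo-related NDR family that limits dendrite growth in neurons. Its level was 71.2, 72.1, 70.0 and 68.4 CPM in E21 libraries and 30.4, 30.4, 35.1 and 38.5 CPM in P11 libraries. The E21 libraries were tightly grouped (70.4 ± 1.61 CPM, SD, n = 4) and the P11 libraries less so (33.6 ± 3.95 CPM, SD, n = 4). The log2 fold change of 1.07 (SE 0.07, adjusted p = 3.06e-10) lay just past the fold threshold, and a test of whether the change exceeded that threshold (glmTreat in edgeR) gave an adjusted p = 0.282.

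Among members higher at P11, *Ppp2r5a* encodes a B56 regulatory subunit that directs PP2A to its substrates. It was at 2.95, 3.50, 3.57 and 3.44 CPM in E21 libraries and at 8.27, 8.52, 7.36 and 9.33 CPM in P11 libraries. The stages were apart in every library, with a log2 fold change of -1.31 (SE 0.13, adjusted p = 1.14e-07). *Ptpn14*, a non-receptor tyrosine phosphatase that binds the Hippo effector YAP, stood at 1.54, 1.98, 1.05 and 2.12 CPM in E21 libraries and at 3.76, 4.62, 4.82 and 5.84 CPM in P11 libraries. The E21 libraries spread over a wide relative range, yet all lay under the lowest P11 library. The log2 fold change was -1.53 (SE 0.22, adjusted p = 6.72e-06). Against the fold threshold itself, glmTreat gave an adjusted p = 0.0221 for *Ppp2r5a* and 0.0191 for *Ptpn14*, and neither passed.

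The remaining members called higher at P11 were barely detected at E21. They passed the filter on low counts through the P11 libraries alone, so their adjusted p values are not on a par with those above. *Dusp27* encodes an atypical dual-specificity phosphatase thought to lack catalytic activity. It had 2, 1, 4 and 0 counts in the E21 libraries and 26, 24, 15 and 21 counts at P11. Relative to TMM-scaled library sizes, P11 was 12.6 times E21, with a 95% counting interval of 5.85 to 32.2 (adjusted p = 2.70e-06 in the edgeR fit). *Map3k7cl* encodes a protein that resembles the C-terminal end of the MAP3K TAK1 and has no kinase domain. It had 0, 1, 0 and 2 counts at E21 and 11, 23, 10 and 34 counts at P11, so that the P11 libraries spread widely. The ratio of P11 to E21 was 26.6, with a counting interval of 8.77 to 132 (adjusted p = 1.03e-05). Without P11 replicate 2 or without P11 replicate 4 it had too few counts to be tested. Intervals of this kind cover counting error only. The fitted log2 fold changes, -3.57 for *Dusp27* and -4.50 for *Map3k7cl*, depend on the prior count and are no bounds.

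**Figure D2:**
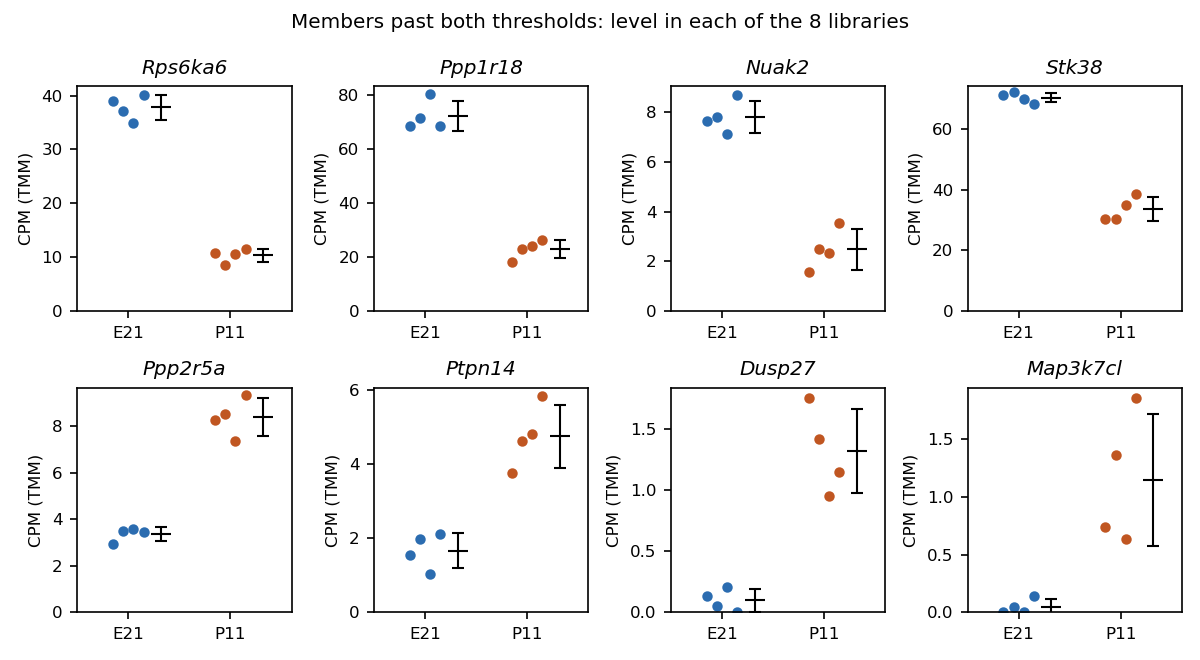
Level (y axis, TMM-scaled CPM from 0) of the 8 called members in each E21 (blue) and P11 (orange) library, with the mean and SD of 4 libraries beside the points and SD bars cut at 0. The stages do not overlap in any of the 8 panels, and *Dusp27* and *Map3k7cl* sit near 0 at E21.

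The 3 untested members were also at very low counts. *Mapk13*, a p38 kinase (p38 delta), had 1, 1, 3 and 3 counts at E21 and 3, 7, 8 and 14 at P11. The groups touched at 3 counts, and a two-sided exact permutation test over libraries gave p = 0.0571. *Mapk7*, which encodes ERK5, had 2, 0, 0 and 0 counts at E21 and 1, 2, 4 and 1 at P11, with an exact permutation p = 0.2. *Pik3r6*, a regulatory subunit of PI3K gamma, a form best known from blood cells, had 0, 0, 0 and 1 counts at E21 and 4, 2, 8 and 6 at P11. Only this member was apart in all libraries, and its p = 0.0286 was the smallest that an exact permutation of 4 against 4 libraries can give. With no filter on low counts, *Mapk13* (adjusted p = 0.00261) and *Pik3r6* (adjusted p = 0.000333) were called higher at P11 by edgeR, and *Mapk7* was not (adjusted p = 0.154). At this depth 3 counts correspond to 0.152 to 0.219 CPM.

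Within the MAP kinase cascade the tiers did not move together. Among the MAPKs, the levels of *Mapk9* (JNK2) and *Mapk10* (JNK3, the neuronal JNK) were higher at P11, and that of *Mapk14* (p38 alpha) was higher at E21. *Mapk10* was at 147, 150, 148 and 144 CPM in E21 libraries and at 277, 281, 272 and 243 CPM in P11 libraries. It was higher in every P11 library, with a log2 fold change of -0.87 (SE 0.05, edgeR adjusted p = 2.80e-11). *Mapk9* stood at 224, 211, 213 and 216 CPM in E21 libraries and at 335, 324, 343 and 315 CPM in P11 libraries, which is -0.61 on the log2 scale (SE 0.04, adjusted p = 4.32e-10). Both JNK genes were thus apart in every library but under the fold threshold. *Mapk14* was at 60.5, 52.2, 54.8 and 57.2 CPM in E21 libraries and at 46.2, 48.9, 47.4 and 46.3 CPM in P11 libraries, which is 0.25 on the log2 scale (SE 0.05, adjusted p = 5.16e-04).

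The JNK-activating MAP2Ks were higher at opposite stages. *Map2k4* (MKK4), which can phosphorylate both JNK and p38, was at 21.8, 22.4, 22.4 and 23.0 CPM in E21 libraries and at 37.5, 37.2, 37.2 and 34.7 CPM in P11 libraries. All P11 libraries were the higher ones, with a log2 fold change of -0.71 (SE 0.06, adjusted p = 6.24e-09 by edgeR). *Map2k7* (MKK7), which is dedicated to JNK, was at 36.8, 34.7, 39.0 and 33.7 CPM in E21 libraries and at 26.1, 27.4, 25.6 and 25.3 CPM in P11 libraries. Here every E21 library was the higher one, with a log2 fold change of 0.47 (SE 0.06, adjusted p = 3.34e-06). *Map2k6* (MKK6), an activator of p38, also had a higher level at E21, with a log2 fold change of 0.50 (SE 0.07, adjusted p = 1.02e-05). In the MAP3K tier, *Map3k14*, the NF-kappa-B-inducing kinase, had a log2 fold change of 0.80 (SE 0.12, adjusted p = 9.09e-06). The stress-activated *Map3k20* (ZAK) had -0.25 and did not pass (adjusted p = 0.0584), and its libraries overlapped.

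Among the kinases below ERK and mTOR, *Rps6ka5* encodes MSK1, a nuclear kinase that phosphorylates CREB and histone H3. It was at 20.4, 19.5, 21.4 and 22.3 CPM in E21 libraries and at 29.8, 27.8, 29.1 and 28.7 CPM in P11 libraries. Unlike *Rps6ka6*, it was higher at P11, its log2 fold change being -0.47 (SE 0.06, edgeR adjusted p = 4.25e-06). *Rps6kc1*, an S6 kinase-like gene, and *Rps6kb1*, the mTOR-driven kinase that phosphorylates ribosomal protein S6, were higher at E21, with log2 fold changes of 0.47 (adjusted p = 1.44e-07) and 0.24 (adjusted p = 1.42e-03). The PI3K regulatory subunit *Pik3r3* overlapped between stages, with a log2 fold change of -0.10 (adjusted p = 0.0783).

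All 4 genes grouped here under AMPK were higher at E21 at the adjusted p, beside 33.8% of all genes, and *Nuak2* alone passed the fold threshold. Outside the members, the related kinase *Snrk* was higher at P11 (log2 fold change -0.41, edgeR adjusted p = 4.61e-07), while *Sik1* (0.47) and *Hunk* (0.25) were higher at E21. *Prkab1*, the scaffolding beta subunit of the energy sensor AMPK, averaged 70.5 ± 2.60 CPM in E21 libraries and 38.3 ± 1.28 CPM in P11 libraries (SD, n = 4 each). Its log2 fold change was 0.88 (SE 0.05, edgeR adjusted p = 5.71e-11). *Camkk2*, which activates AMPK in response to calcium, had 0.43 (adjusted p = 3.06e-06). *Mark1*, a microtubule-affinity regulating kinase that phosphorylates tau, had 0.25 (adjusted p = 3.24e-05). Of the other kinases, *Stk10*, a STE20-type kinase that phosphorylates ERM proteins, had a log2 fold change of 0.87 (SE 0.12, adjusted p = 3.36e-06). *Prkd1* (protein kinase D1) had 0.55 (adjusted p = 9.11e-04) and *Csnk2b*, the regulatory subunit of casein kinase CK2, had 0.22 (adjusted p = 3.05e-04). *Prkg2*, a cyclic GMP-dependent kinase, averaged 0.596 CPM in E21 and 1.07 CPM in P11 libraries, and its -0.85 did not pass (SE 0.33, adjusted p = 0.0285). The NDR2 kinase *Stk38l*, close relative of *Stk38*, was higher at P11. It was at 25.8, 27.5, 26.4 and 28.2 CPM in E21 libraries and at 37.6, 35.3, 36.0 and 35.6 CPM in P11 libraries, which is -0.42 on the log2 scale (SE 0.06, adjusted p = 3.70e-06).

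The PP1 genes among the members other than *Ppp1r18* were higher at P11 at the adjusted p, beside 34.6% of all genes. The catalytic subunit *Ppp1cc* had a log2 fold change of -0.35 (edgeR adjusted p = 4.22e-07), and the PP1 inhibitors *Ppp1r2* and *Ppp1r11* had -0.64 (adjusted p = 2.25e-07) and -0.76 (adjusted p = 3.07e-09). *Ppp1r18* thus stood against the catalytic subunit and both inhibitors in direction. The 3 tyrosine phosphatases among the members, all of the Ptpn kind, were higher at P11 at the adjusted p, beside 34.6% of all genes. Of these only *Ptpn14* was called, and so few genes give no result about the family. Besides *Ptpn14*, the FERM-domain phosphatase *Ptpn4* had -0.82 on the log2 scale (adjusted p = 2.65e-06). *Ptpn13*, a large scaffold phosphatase with FERM and PDZ domains, was at 12.8, 11.1, 10.4 and 9.21 CPM in E21 libraries and at 20.2, 21.1, 13.3 and 27.2 CPM in P11 libraries. Its P11 replicate 3 stood close to the E21 libraries, and its P11 replicate 4 was the highest. The log2 fold change was -0.91 (SE 0.20, adjusted p = 2.67e-03). Leaving out each library in turn gave -1.08 to -0.75. Only without P11 replicate 3 did it pass the fold threshold (-1.08, adjusted p = 8.06e-07). The members of the PP2A, PP4 and PPM families other than *Ppp2r5a* had smaller differences. *Ppm1d* (WIP1), which dephosphorylates p38 and p53, had 0.50 (adjusted p = 8.98e-07), the PP4 subunit *Ppp4r3b* had 0.17 (adjusted p = 4.10e-03) and *Ppm1h* had -0.19 (adjusted p = 1.36e-03). The dual-specificity phosphatases *Dusp12*, an atypical one, and *Dusp10* (MKP5), which acts on JNK and p38, were higher at E21 by 0.59 (adjusted p = 2.81e-06) and 0.34 (adjusted p = 6.49e-03) on the log2 scale, the libraries of *Dusp10* overlapping between stages.

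Several related genes therefore stood on opposite sides, and the ratio of their counts within a library, which no scaling between libraries affects, was compared for 5 pairs. The pairs were chosen with the members' values known, so the tests give no independent support. The *Stk38* to *Stk38l* ratio was 2.76, 2.62, 2.65 and 2.42 in the E21 libraries and 0.809, 0.859, 0.975 and 1.08 in the P11 libraries. The ratio thus went from well above 1 to about 1, a log2 difference of 1.49. The *Rps6ka6* to *Rps6ka5* ratio was 1.91, 1.91, 1.63 and 1.80 at E21 and 0.359, 0.309, 0.362 and 0.399 at P11, a log2 difference of 2.34. The *Map2k7* to *Map2k4* ratio was 1.68, 1.55, 1.75 and 1.47 at E21 and 0.697, 0.736, 0.689 and 0.728 at P11, a log2 difference of 1.17. Both ratios crossed 1 in count, which says nothing of which gene is more abundant, since gene lengths were not used. The *Mapk14* to *Mapk9* ratio was 0.269, 0.248, 0.257 and 0.265 at E21 and 0.138, 0.151, 0.138 and 0.147 at P11, a log2 difference of 0.86. The smallest shift was in the ratio of the JNK genes *Mapk10* to *Mapk9*, at 0.657, 0.710, 0.693 and 0.669 at E21 and between 0.773 and 0.868 at P11, a log2 difference of -0.26. In each of the 5 pairs the libraries of the stages were apart, and the two-sided exact permutation test gave p = 0.0286 (0.0286 after Benjamini-Hochberg adjustment over the 5 pairs), the smallest p that 4 against 4 libraries allow.

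**Figure D3:**
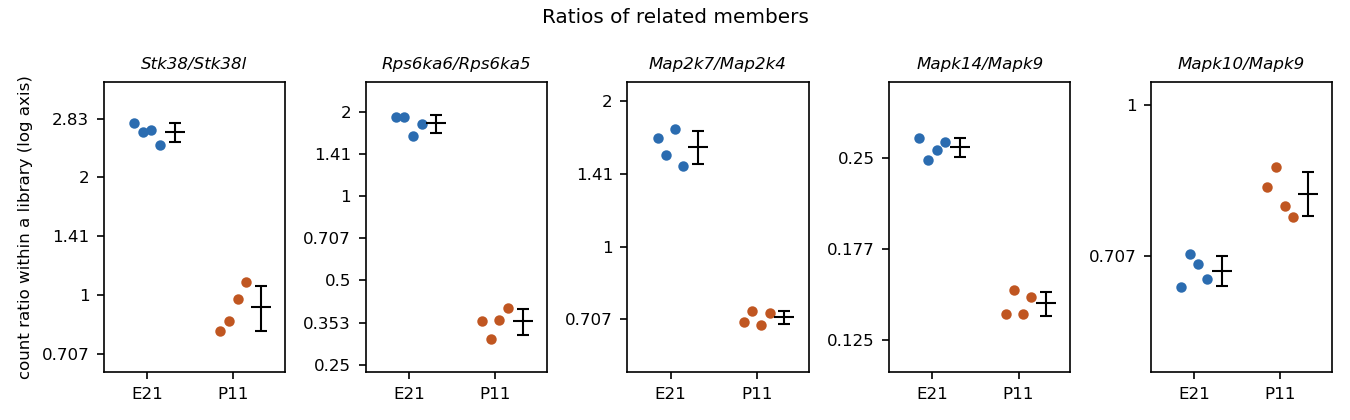
Ratio of the counts of related members within each library (y axis, log scale) at E21 (blue) and P11 (orange), with the mean and SD. The *Stk38* to *Stk38l*, *Rps6ka6* to *Rps6ka5* and *Map2k7* to *Map2k4* ratios are all above 1 at E21, and at P11 only the *Stk38* to *Stk38l* ratio of replicate 4 (1.08) exceeds 1.

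Promoter sequence was looked at because cyclic AMP and CREB, its nuclear effector, were a theme of the study and because RSK and MSK kinases phosphorylate CREB. The study reported the CREB/ATF motif as enriched in promoter regions more open at E21 and not in those more open at P11. A TAX/CREB motif was reported as enriched in both, more so at E21. The study also found CREB/ATF sites in open promoter regions of many genes whose expression differed between the stages. It used motif matrices on regions of measured accessibility. The search here used exact letters in fixed windows and no accessibility data, so the results are not comparable. Windows from 250 bases before to 50 bases after the start were taken from RefSeq (GRCr8), and 32 of the 42 members had one. The full cyclic AMP response element, TGACGTCA, which reads the same on both strands, was in 2 of the 32 windows, those of *Mapk10* and *Stk38l*, and in 1.83% of all 33469 windows. Both genes were higher at P11 at the adjusted p. Among all named genes with a window, the full element was in 2.78% of those higher at P11. It was in 2.6% of those higher at E21 and in 5.53% of those that did not pass. No test was run on this direction. The element begins 78 bases before the start in *Mapk10* and 138 bases before it in *Stk38l*. The shorter form TGACG, which lies inside the full element and was searched on both strands, was in 12 of the 32 windows and in 21.2% of all windows. The AP-1 site TGACTCA, searched on both strands, was in 0 of the 32 and in 4.63% of all windows. The YY1 core AAGATGGC, searched on both strands, was in 2 (*Mapk7* and *Ppp4r3b*) and in 3.17% of all windows. A match is a run of letters and not a shown binding site.

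The windows of the full-element genes *Mapk10* and *Stk38l*, of *Stk38* as the relative of *Stk38l* without the element, of *Ppp1r11* with the most copies of TGACG outside the full element, and of *Ppp2r5a* and *Ptpn14*, both called higher at P11, are shown 5′ to 3′ on the gene's strand. Capitals mark TGACG on either strand (TGACG or CGTCA).
Mapk10 (chr14:6802044-6802343, plus strand): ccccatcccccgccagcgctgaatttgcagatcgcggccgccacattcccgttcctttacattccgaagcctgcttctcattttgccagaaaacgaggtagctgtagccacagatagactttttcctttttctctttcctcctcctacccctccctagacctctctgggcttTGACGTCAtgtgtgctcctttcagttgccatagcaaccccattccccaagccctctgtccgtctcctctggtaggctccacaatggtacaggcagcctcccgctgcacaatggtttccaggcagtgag
Stk38l (chr4:181364701-181365000, plus strand): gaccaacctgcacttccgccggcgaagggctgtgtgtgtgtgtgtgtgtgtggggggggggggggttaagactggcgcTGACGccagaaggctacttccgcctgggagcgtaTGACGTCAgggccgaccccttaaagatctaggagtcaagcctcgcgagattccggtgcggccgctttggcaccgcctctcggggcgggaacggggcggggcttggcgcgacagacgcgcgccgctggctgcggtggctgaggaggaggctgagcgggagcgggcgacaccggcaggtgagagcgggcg
Stk38 (chr20:7069390-7069689, minus strand): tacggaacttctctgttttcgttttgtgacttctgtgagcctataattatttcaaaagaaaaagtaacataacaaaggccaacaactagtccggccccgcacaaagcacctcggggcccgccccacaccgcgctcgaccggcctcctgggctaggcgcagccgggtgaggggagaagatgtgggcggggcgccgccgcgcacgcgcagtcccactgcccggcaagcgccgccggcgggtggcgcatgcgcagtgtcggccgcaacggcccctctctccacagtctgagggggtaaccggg
Ppp1r11 (chr20:1606333-1606632, plus strand): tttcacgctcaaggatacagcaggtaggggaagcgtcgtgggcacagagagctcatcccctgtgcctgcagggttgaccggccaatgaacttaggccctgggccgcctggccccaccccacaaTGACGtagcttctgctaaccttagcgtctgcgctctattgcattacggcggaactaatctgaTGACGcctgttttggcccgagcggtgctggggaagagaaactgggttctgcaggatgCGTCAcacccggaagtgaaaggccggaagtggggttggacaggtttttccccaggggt
Ppp2r5a (chr13:105506718-105507017, minus strand): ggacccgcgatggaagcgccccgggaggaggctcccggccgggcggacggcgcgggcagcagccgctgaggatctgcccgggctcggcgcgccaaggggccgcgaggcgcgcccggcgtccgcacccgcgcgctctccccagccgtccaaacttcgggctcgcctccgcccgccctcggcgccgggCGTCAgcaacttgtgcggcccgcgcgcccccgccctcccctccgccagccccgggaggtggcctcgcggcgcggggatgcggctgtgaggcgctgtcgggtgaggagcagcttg
Ptpn14 (chr13:103799244-103799543, plus strand): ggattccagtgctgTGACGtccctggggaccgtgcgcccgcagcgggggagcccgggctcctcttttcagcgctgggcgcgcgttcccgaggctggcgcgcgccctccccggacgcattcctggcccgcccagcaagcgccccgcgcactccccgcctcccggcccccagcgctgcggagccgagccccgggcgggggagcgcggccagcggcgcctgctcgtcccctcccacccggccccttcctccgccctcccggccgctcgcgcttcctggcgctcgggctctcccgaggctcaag

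By direction, TGACG was in the windows of 9 of 10 members higher at P11 at the adjusted p and of 2 of 18 members higher at E21. Among all named genes with a window it was in 144 of 467 genes higher at P11 (30.8%), 172 of 500 higher at E21 (34.4%) and 129 of 380 that did not pass (33.9%). The pattern among members was noticed after the values were seen, and no test was run on it. Of the called members, 2 of 2 with a window at P11 and 0 of 4 at E21 held the motif, while among all named genes called it was in 22.3% at P11 and 26.5% at E21.

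The order of the P11 libraries by vascular markers was set beside that by each member. The endothelial and mural sum was 290 CPM in replicate 3, 382 in replicate 1, 474 in replicate 2 and 568 in replicate 4. The levels of *Map3k7cl*, *Ppp2r5a*, *Ptpn13* and *Prkab1* had the same order, which is 4 of 39 members (10.3%) beside 5.53% of all genes tested, a count too small to be a result about the members. *Ptpn13* ranged from 13.3 CPM in replicate 3 to 27.2 CPM in replicate 4, and *Map3k7cl* from 0.635 to 1.85 CPM. *Prkab1* was lower at P11 than at E21 and spanned only 37.1 to 39.7 CPM. *Dusp27* did not follow this order, its highest P11 library being replicate 1 with 1.75 CPM. The part of these cells in the members' differences was not tested.

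**Figure D4:**
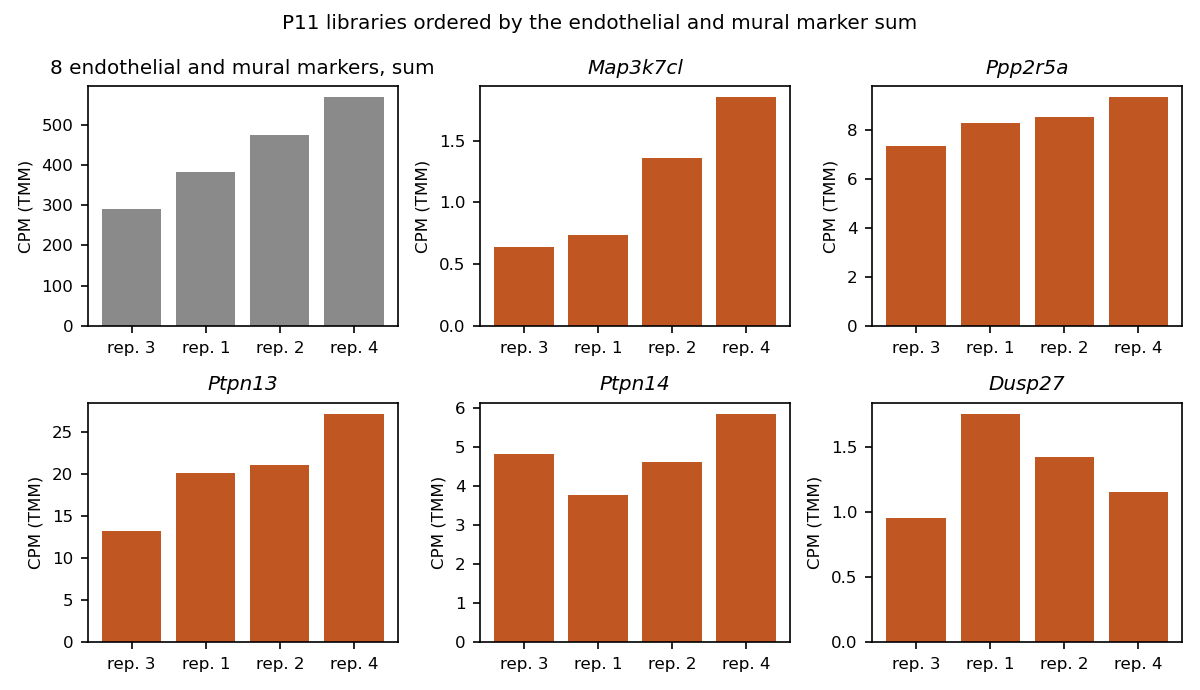
Level (y axis, CPM from 0) in the 4 P11 libraries, ordered along the x axis by the summed level of 8 endothelial and mural markers (grey panel). *Map3k7cl*, *Ppp2r5a* and *Ptpn13* have the same order as the marker sum, and *Ptpn14* and *Dusp27* do not.

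Outside the members, 43 other named protein kinases and 26 adaptors, regulators and targets of these pathways were examined. Of the 41 tested kinases, 3 were called higher at E21 and 9 at P11, beside 8.16% and 16.5% of all genes. At the adjusted p alone 17 were higher at E21 and 15 at P11, beside 33.8% and 34.6% of all genes, with a median log2 fold change of 0.11. The largest difference towards E21 was in *Ripk4*, a receptor-interacting kinase, at 2.51 ± 0.294 CPM in E21 libraries and 1.06 ± 0.0648 CPM in P11 libraries (SD, n = 4 each). Its log2 fold change was 1.23 (SE 0.20, edgeR adjusted p = 3.80e-05). The others, named after their values were seen, were *Kalrn*, a neuronal guanine nucleotide exchange factor with a kinase domain, and *Wnk3*, a regulator of chloride transporters. Their log2 fold changes were 1.21 each (SE 0.06 and 0.07), within the SE of *Ripk4*, so the order of the 3 is not settled. With glmTreat, 2 kinases of this list were called higher at E21. Towards P11 the largest was in *Mylk*, the myosin light chain kinase of smooth muscle, at 1.38 ± 0.103 CPM in E21 libraries and 32.6 ± 7.70 CPM in P11 libraries (-4.55 on the log2 scale, adjusted p = 2.07e-09). Its P11 levels were 29.7, 33.3, 24.6 and 42.8 CPM, the highest again being in replicate 4 and the lowest in replicate 3.

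Of the 25 tested adaptors, regulators and targets, 0 were called higher at E21 by edgeR, and also 0 by DESeq2, and 3 were called higher at P11, beside 8.16% and 16.5% of all genes. At the adjusted p alone 9 were higher at E21, as many as at an unadjusted p below 0.05, and 7 were higher at P11, beside 33.8% and 34.6% of all genes. *Grb10*, an adaptor that dampens insulin receptor signalling and is a target of mTOR complex 1, stood at 46.2 ± 3.48 CPM in E21 libraries and 133 ± 6.10 CPM in P11 libraries (SD, n = 4 each; log2 fold change -1.53, edgeR adjusted p = 2.20e-13). The others, named after their values were seen, were the mTOR inhibitor *Deptor* (-1.51) and *Pkib*, an inhibitor of protein kinase A (-1.35).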

How the data were processed

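RNA of 4 E21 and 4 P11 RGC libraries was sequenced as pairs of reads. Per the labels and the study's methods, the authors trimmed reads with cutadapt 1.16, aligned them to Rnor_6.0 with STAR 2.5.3a and counted them per gene with HTSeq 0.6.1, and deposited the raw counts under Ensembl gene IDs. The annotation release and the strand setting are not given in the sources used here, so reads of overlapping or antisense genes cannot be told apart. HTSeq records of reads aligned to several places, left out of library sizes, were 37.44% to 42.21% of records at E21 and 31.72% to 36.34% at P11, so genes with near-identical copies are counted low.

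Symbols came from the study's gene table, of which 1998 entries were used. Members, lists, pairs and motifs were chosen with earlier results of these data known. All gene IDs were fitted with edgeR 4.0.16 in R 4.3.3 (filterByExpr, TMM, robust quasi-likelihood test), with Benjamini-Hochberg adjustment over 14043 genes. The calling thresholds, 0.01 for the adjusted p and 1 for the size of the log2 difference, were those of the study. Single values were tested with exact permutation tests (scipy 1.17.1). Count ratios used a pseudocount of 0.5. Values in every library are given for called members, for the 5 pairs and for members near the limit of detection, and for others where single libraries bear on the result. Of the other lists, the largest called change in each direction is named. The fit was tested on simulated data. Alternatives were DESeq2 1.42.0, glmTreat, other scalings and filters, a looser threshold, a replicate block and leaving out each library. One member enters the counts and is not otherwise reported here, nor is 1 of the 9 marker lists. No gene lengths or protein sequences were used. The windows come from GRCr8, another build than that of the counts, and were matched by symbol.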

Additional observations from a re-analysis of the deposited data

Results flagged for a closer look

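In groups of 4 libraries, a library was listed when its gap to the nearest other exceeded the 95% limit of Dixon's test, which chance passes in about 1 in 20 groups. Of the 106 groups examined, 3 had such a library. *Map2k4* was at 34.7 CPM in P11 replicate 4 and at 37.2 to 37.5 CPM in the other P11 libraries. *Prkd1* was at 6.66 CPM in E21 replicate 3 and at 7.36 to 7.46 CPM in the other E21 libraries. The summed level of 4 markers of proliferating cells and progenitors was 24.3 CPM in P11 replicate 4 and 13.5 to 15.3 CPM in the other P11 libraries.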

How the results depend on the processing

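Across 17 alternatives, 654 of 658 values of single members kept their direction and stayed called or not called, and none reversed. The looser threshold and glmTreat reused the log2 fold changes of the main fit, so they could not reverse a direction. Another 5 could not be had because the gene left the test. The adjusted p alone could cross 0.01 with no change of call. For *Dusp10* it was 0.00649 in the main fit and 0.0165 with library size scaling, and for *Pik3r3* 0.0783 and 0.00804. For *Map3k20* it was 0.0584 in the main fit and 0.00543 without E21 replicate 3. With glmTreat, *Stk38*, *Ppp2r5a* and *Ptpn14* were no longer called, which left 2 members called higher at P11, *Map3k7cl* and *Dusp27*. When every library had to hold at least 10 counts of a gene, 36 members were tested, and *Map3k7cl* and *Dusp27* were not. The 2 then called higher at P11 were *Ppp2r5a* and *Ptpn14*. No member was thus called higher at P11 in both of these settings. With no filter, 42 members were tested and 6 were called higher at P11, *Mapk13* and *Pik3r6* being added. Leaving out each library in turn gave 3 to 5 members called higher at P11. *Map3k7cl* was not tested without P11 replicate 2 or without P11 replicate 4, and *Ptpn13* was called in addition without P11 replicate 3. With the replicate block, 3463 genes were called in all, beside 3462 without it, and members stayed at 4 in each direction. Deviations of same-numbered libraries correlated at -0.03 to 0.09, and those of differently numbered libraries at -0.10 to 0.07. The highest values were those of replicates 2 (0.0905) and 4 (0.0782) with their same-numbered libraries. Such correlations cannot exclude shared processing, so whether the numbers pair the samples is not known. Genes called in all were 3449 with DESeq2, 2317 with glmTreat, 2430 with at least 10 counts in every library, 4205 with no filter, and 3446 to 3600 when each library was left out in turn. With scaling by library size, added after seeing the data, the 9 marker sums kept their direction. Scaling moved the median log2 fold change of all genes by -0.0544 at most. Leaving out each library in turn changed no direction of a pair ratio, but 3 against 4 libraries cannot reach p = 0.05 in an exact permutation test. Depth limits *Mapk7*, *Mapk13*, *Pik3r6*, *Map3k7cl* and *Dusp27*, whose E21 counts were between 0 and 4.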
